A study of Sus scrofa with 4 samples.

Results

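The circadian clock genes measured here are 9 of 10 requested genes of the core molecular clock: PER1, PER2, CRY1, CRY2, CLOCK, ARNTL (also written BMAL1), NR1D1, NR1D2 and BHLHE40. They were found by symbol among the 35670 genes of each count file. No row carries the symbol PER3, which was not analysed here. RNA came from porcine fetal fibroblasts (PFFs) from skin, cells used as nuclear donors in cloning, and every library was from cells under serum starvation. The 2 control libraries have the genotype label WT and the 2 others the label BRG1-overexpressed. BRG1, encoded by SMARCA4, is the motor subunit of a chromatin remodelling complex. All 4 titles include pTK-642, a name that no label explains, and whether the controls hold a vector is not stated. The series' design text asks what more BRG1 does to the chromatin of donor cells.

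In the clock of mammalian cells, CLOCK and ARNTL bind together to E-box sequences and switch on the PER and CRY genes, whose proteins return to the nucleus and repress that pair. A second loop runs through NR1D1 and NR1D2, the REV-ERB nuclear receptors, which repress ARNTL, and the ROR receptors, which activate it. Fibroblasts in culture keep this rhythm, and serum or glucocorticoid can set its phase. The labels give no clock time or time after serum withdrawal, so a shift in phase and a change in mean level cannot be told apart in these libraries.

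Reads in genes summed to between 34486400 and 38126860 per library. SMARCA4 showed no rise with the BRG1 label, at 154 and 178 CPM (counts relative to library size after TMM scaling) in controls 1 and 2 and 159 and 163 CPM in the BRG1-labelled libraries 1 and 2. The difference on the log2 scale, from edgeR's quasi-likelihood fit, was -0.04 with an SE of 0.11. Its p, adjusted by the Benjamini-Hochberg method over the 14617 genes tested, was 0.765, so this gene does not check the label. Values written with ± after a log2 fold change below are SEs of the same fit. SMARCA4 was at -0.15 with control 1 left out. With the trend of fold change with gene span removed it passed as lower, at -0.24 (adjusted p = 0.0407). The share of reads that fell outside genes was 6.11% and 7.34% in the controls and 10.3% and 10.5% in the BRG1-labelled libraries; its part in the results below was not tested. Fibroblast markers were abundant. Over 7 genes they summed to 24160 to 27270 CPM in controls and 34730 to 34780 CPM in the BRG1-labelled libraries. Of the 7, 5 rose, against 21% of all genes tested. The others, COL3A1 and VIM, lay lower in both BRG1-labelled libraries but did not pass (log2 fold change -0.21 and -0.27). Each of 5 marker lists of other cells stayed below 9 CPM in sum. The endothelial list, with reads in 5 of its 6 genes, summed to between 5.17 and 6.03 CPM in controls and between 8.18 and 8.97 CPM in the BRG1-labelled libraries. In it PECAM1 was higher and the defining gene CDH5 had 1, 0, 0 and 0 reads. VWF went the other way, with 82, 37, 28 and 27 reads, but did not pass (log2 fold change -1.28; adjusted p = 0.0561, edgeR quasi-likelihood test). The keratinocyte gene KRT5 and the leukocyte gene PTPRC had 0 reads in every library.

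Of the 9 clock genes, 5 rose in the libraries labelled BRG1 (CRY2, NR1D1, CLOCK, PER1 and NR1D2), 1 fell (CRY1) and 3 did not pass the test (ARNTL, PER2 and BHLHE40). All 9 were abundant enough to be tested. Over all 14617 genes tested, 44.6% passed an adjusted p of 0.05, 21% as higher and 23.6% as lower, so many genes of these fibroblasts differed between the groups and 6 of 9 is to be read against that. The median log2 fold change was 0.30 over the clock genes and 0.02 over all genes tested. The groups did not overlap in 7 of the 9 clock genes, against 73.2% of all genes: 5 lay higher and 2 lower, against 37.5% and 35.7% of all genes. A rise of at least 2-fold was called for 1 of the 9, CRY2, and for 8.67% of all genes. The labels do not say that libraries of 1 group are separate cultures, so each p measures the spread between these libraries, which may be technical. In these bulk samples, fewer cells expressing a gene and less RNA per cell cannot be told apart.

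**Figure D1:**
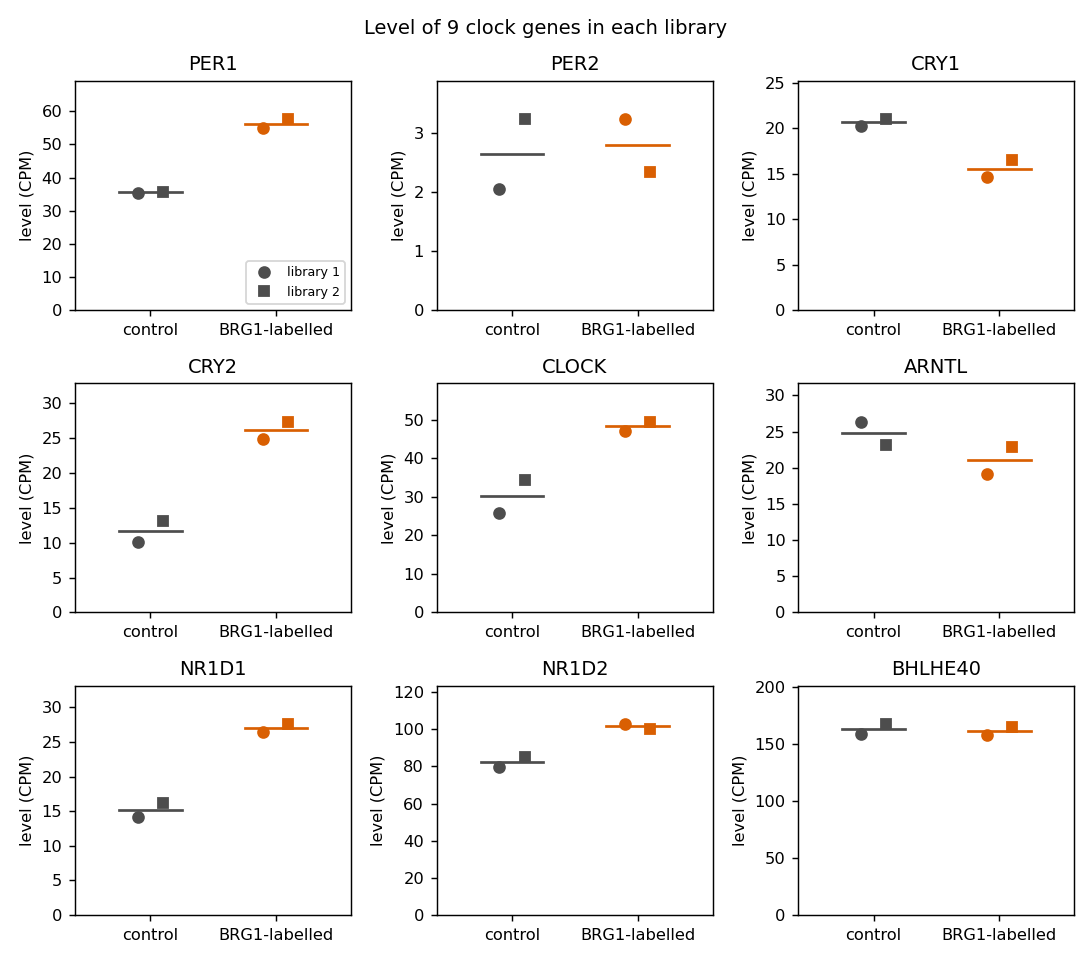
Level of each clock gene in CPM (vertical axes from 0) in the control (grey) and BRG1-labelled (orange) libraries. Circles are library 1, squares library 2 and lines the group means. PER1, CRY2, CLOCK, NR1D1 and NR1D2 lie higher in both BRG1-labelled libraries, CRY1 and ARNTL lie lower, and PER2 and BHLHE40 overlap.

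Of the 4 repressor genes of the loop measured, CRY2 and PER1 rose, CRY1 fell and PER2 did not pass. CRY2 (ENSSSCG00000013270; Sscrofa11.1 chromosome 2, 16587101 to 16620380), a cryptochrome that represses CLOCK and ARNTL, was at 10.2 and 13.1 CPM in controls 1 and 2 and at 24.9 and 27.4 CPM in the BRG1-labelled libraries 1 and 2. Both BRG1-labelled values lay well above both controls, and the 2 libraries of each group differed by less than the step between the groups. CRY2 rose 2.25-fold, the largest change of the 9 (log2 fold change 1.17 ± 0.16; 95% interval 0.84 to 1.5; adjusted p = 2.50e-05, edgeR quasi-likelihood test), and 90.4% of tested genes had a lower log2 fold change.

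CRY1 (ENSSSCG00000000164; chromosome 5, 13275265 to 13429566), the other cryptochrome, went the opposite way. It was at 20.3 and 21.0 CPM in controls and at 14.6 and 16.5 CPM in the BRG1-labelled libraries, with no overlap. The fall was 0.41 ± 0.14 on the log2 scale (95% interval -0.71 to -0.11; adjusted p = 0.0285, edgeR quasi-likelihood test). This call was lost without BRG1-labelled library 1 (-0.32; adjusted p = 0.299), without BRG1-labelled library 2 (-0.50; adjusted p = 0.0894) and with scaling by library size alone (-0.19; adjusted p = 0.295), and narrowly in DESeq2 (-0.43; adjusted p = 0.0507). With the span trend removed, CRY1, which spans 154 kb, was at -0.71 (adjusted p = 0.000377). The RefSeq span of CRY1 holds the whole of TMEM263 (4205, 3513, 4056 and 3882 reads in the 4 libraries) and MTERF2, and the sources used here do not give the strand setting of the counts.

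Because library scaling cancels in a ratio of reads within a library, the cryptochromes were also set against each other. There were 0.501 and 0.623 reads of CRY2 for each read of CRY1 in controls 1 and 2, and 1.71 and 1.66 in the BRG1-labelled libraries. CRY1 thus had more reads than CRY2 in both controls, and CRY2 more than CRY1 in both BRG1-labelled libraries. The ratio differed 3.01-fold between the groups, or by 1.59 on the log2 scale, with an SD on that scale of 0.222 between controls and 0.0272 between BRG1-labelled libraries. An exact two-sided permutation test of 2 libraries against 2 cannot give a p below 0.333, which is the value here (0.389 adjusted over the 7 ratios computed). Transcript lengths differ between genes, so a ratio is compared here only across libraries.

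PER1 (ENSSSCG00000017983; chromosome 12, 53361863 to 53376723), a period protein that carries the cryptochromes into the repressor complex and also an early target of resetting signals, was at 35.4 and 35.7 CPM in controls and at 55.0 and 57.6 CPM in the BRG1-labelled libraries. The controls were almost equal and both BRG1-labelled libraries were higher. PER1 rose 1.59-fold (log2 fold change 0.67 ± 0.11; 95% interval 0.43 to 0.90; adjusted p = 0.00016, edgeR quasi-likelihood test). There were 1.75 and 1.70 reads of PER1 per read of CRY1 in controls against 3.77 and 3.50 in the BRG1-labelled libraries, a 2.11-fold difference without overlap.

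PER2 (ENSSSCG00000016338; chromosome 15, 137793419 to 137837854), the paralog of PER1 in the same complex, was by reads the scarcest of the 9, with 72 and 104 reads in controls and 127 and 88 in the BRG1-labelled libraries. Its level was 2.06 and 3.24 CPM in controls and 3.24 and 2.35 CPM in the BRG1-labelled libraries, so the groups overlapped. The log2 fold change of 0.08 ± 0.34 had a 95% interval from -0.64 to 0.80 (adjusted p = 0.868, edgeR quasi-likelihood test). At this depth a change of the size seen for PER1 lies inside that interval, and the reads do not show whether the PER genes differed in response: the ratio of PER1 to PER2 reads overlapped between the groups (17.2 and 11.0 against 17.0 and 24.5; exact permutation p = 0.667).

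**Figure D2:**
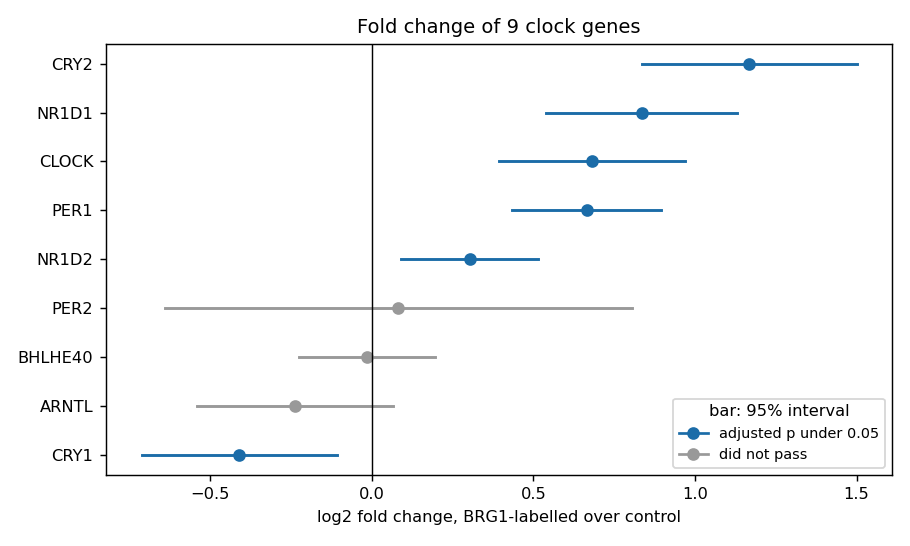
Log2 fold change of each clock gene, BRG1-labelled over control, from the edgeR fit (points) with its 95% interval (bars), in blue where the adjusted p was under 0.05. CRY2 is highest at 1.17 and CRY1 lowest at -0.41, and the interval of PER2 is the widest.

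Of the activator pair, CLOCK rose and ARNTL did not pass the test. CLOCK (ENSSSCG00000008909; chromosome 8, 54793323 to 54910192), the histone-acetylating partner of ARNTL, was at 25.9 and 34.4 CPM in controls and at 47.2 and 49.5 CPM in the BRG1-labelled libraries. The controls differed from each other more than the BRG1-labelled libraries did, but the groups did not overlap. CLOCK rose 1.6-fold (log2 fold change 0.68 ± 0.13; 95% interval 0.39 to 0.97; adjusted p = 0.000817, edgeR quasi-likelihood test). The size depended on the control: it was 0.48 without control 1 and 0.88 without control 2. CLOCK spans 117 kb of genome, and log2 fold changes in these libraries were larger for genes of longer span (Spearman rho 0.292 over 11317 genes; genes are no independent replicates). With that trend removed the value was 0.44 (adjusted p = 0.00609), still past the threshold. In the RefSeq table CLOCK shares 3030 bases with TMEM165, which had 2341, 1950, 3245 and 2913 reads in the 4 libraries. TMEM165 itself passed as higher (log2 fold change 0.33; adjusted p = 0.0179, edgeR quasi-likelihood test). The counts set apart 1.9% to 2.33% of a library's reads as ambiguous. Without a known strand setting, whether reads in the bases shared by CLOCK and TMEM165 are among them is not known.

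ARNTL (ENSSSCG00000013397; chromosome 2, 45895637 to 46025174), the obligate partner of CLOCK at E-boxes and the target of the REV-ERB receptors, was at 26.4 and 23.1 CPM in controls and at 19.2 and 22.9 CPM in the BRG1-labelled libraries. The BRG1-labelled libraries were both lower, but BRG1-labelled library 2 and control 2 lay side by side. The log2 fold change of -0.24 ± 0.14 did not pass (95% interval -0.54 to 0.07; adjusted p = 0.192, edgeR quasi-likelihood test). The value was -0.34 with control 2 left out and -0.01 with scaling by library size alone. ARNTL spans 130 kb, and with the span trend removed it passed as a fall (-0.51; adjusted p = 0.00644). Reads of CLOCK per read of ARNTL were 0.984 and 1.49 in controls and 2.46 and 2.17 in the BRG1-labelled libraries, a 1.91-fold difference without overlap, though the controls themselves differed by 0.42 (SD) on the log2 scale.

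Both REV-ERB genes of the second loop rose. NR1D1 (ENSSSCG00000036933; chromosome 12, 22263549 to 22274131), which encodes REV-ERB alpha, was at 14.1 and 16.2 CPM in controls and at 26.5 and 27.6 CPM in the BRG1-labelled libraries. Each BRG1-labelled library was far above both controls. NR1D1 rose 1.78-fold (log2 fold change 0.83 ± 0.14; 95% interval 0.54 to 1.13; adjusted p = 0.000192, edgeR quasi-likelihood test). In the RefSeq table NR1D1 shares 3626 bases with THRA, a thyroid hormone receptor gene. Without a known strand setting, whether reads there were set apart as ambiguous is likewise not known. THRA itself had 1728, 1895, 2295 and 2398 reads in the 4 libraries and did not pass (log2 fold change 0.18; adjusted p = 0.227). Its value was 0.30 without control 2, and THRA passed as higher with library size alone (0.40).

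NR1D2 (ENSSSCG00000027017; chromosome 13, 10756954 to 10791219), which encodes REV-ERB beta, was at 79.8 and 84.9 CPM in controls and at 103 and 100 CPM in the BRG1-labelled libraries. The groups did not overlap, but the step was small. NR1D2 rose 1.23-fold (log2 fold change 0.30 ± 0.10; 95% interval 0.09 to 0.52; adjusted p = 0.0227, edgeR quasi-likelihood test). The call was lost without BRG1-labelled library 1 (0.29; adjusted p = 0.281), without BRG1-labelled library 2 (0.32; adjusted p = 0.229) and with no filter on low counts (0.27; adjusted p = 0.0511). The value was 0.53 with scaling by library size alone. Reads of NR1D1 per read of NR1D2 rose from 0.177 and 0.191 in controls to 0.258 and 0.275 in the BRG1-labelled libraries, without overlap.

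The receptors and their target were read against each other in the same way. There were 0.536 and 0.700 reads of NR1D1 per read of ARNTL in controls 1 and 2, and 1.38 and 1.21 in the BRG1-labelled libraries, a 2.11-fold difference. For NR1D2 and ARNTL the ratio was 3.03 and 3.67 in controls and 5.36 and 4.39 in the BRG1-labelled libraries, a 1.46-fold difference. Of the 7 ratios computed, 6 did not overlap between the groups, and PER1 to PER2 did. Among single genes 73.2% of those tested did not overlap, and no such share was computed for ratios of other gene pairs. The pairs were chosen after the levels had been seen, and none of the 7 could reach an exact permutation p below 0.333.

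**Figure D3:**
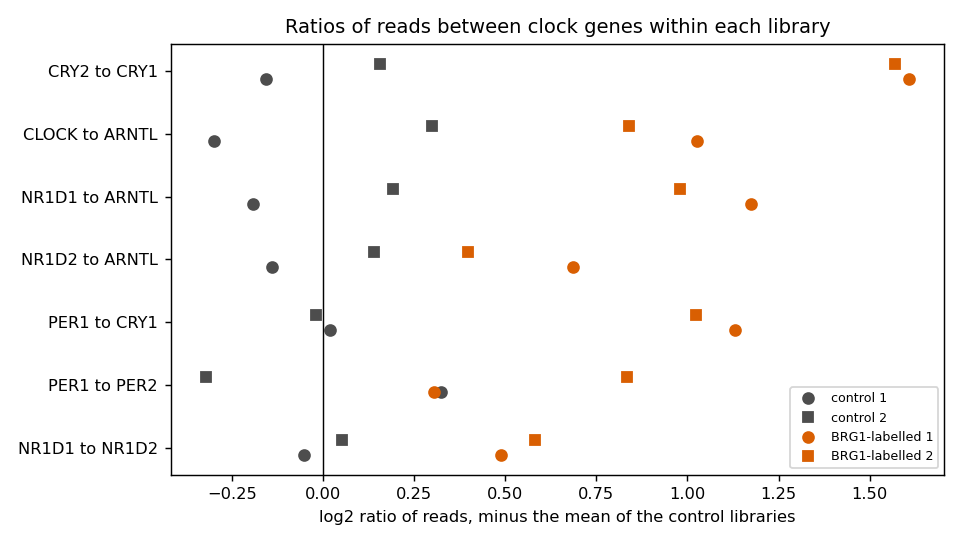
Log2 ratio of reads between pairs of clock genes in each library, minus the mean of the control libraries for that pair (horizontal axis). Grey marks are controls, orange marks BRG1-labelled libraries, circles library 1 and squares library 2. CRY2 to CRY1 differs most between the groups, by 1.59, and PER1 to PER2 overlaps.

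BHLHE40 (ENSSSCG00000036136; chromosome 13, 61526121 to 61533686), also called DEC1, is a repressor that competes at E-boxes. It had between 5368 and 6201 reads per library, the most of the 9. Its level was 159 and 167 CPM in controls and 158 and 164 CPM in the BRG1-labelled libraries, fully interleaved. The log2 fold change was -0.01 ± 0.10 (95% interval -0.23 to 0.20; adjusted p = 0.918, edgeR quasi-likelihood test), so that a change of 1.23-fold as in NR1D2 would lie outside the interval on the higher side. The sign of this small value turned with the scaling and the filter, to 0.21 with library size alone and 0.18 with the span trend removed.

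The rises of PER1, CRY2, CLOCK and NR1D1 kept their direction in all 14 alternatives tried, which include leaving out each library. The threshold of 0.01 uses the same fit, so direction and size could not differ there. The 4 rises also kept their side of the threshold, which without a control rests on the spread of the BRG1-labelled pair alone. Their log2 fold changes ranged from 0.63 to 0.89 for PER1, from 0.99 to 1.39 for CRY2, from 0.44 to 0.91 for CLOCK and from 0.73 to 1.06 for NR1D1. With BRG1-labelled library 1 or 2 left out, 4 clock genes rose and 0 fell, in fits that called 12.6% and 13% of all genes higher and 14.3% and 14.8% lower. At an unadjusted p under 0.05, 0 and 1 were lower. With library size alone, where the median of all genes moved from 0.02 to 0.24, 5 rose and 0 fell, against 33% and 14.6% of all genes.

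**Figure D4:**
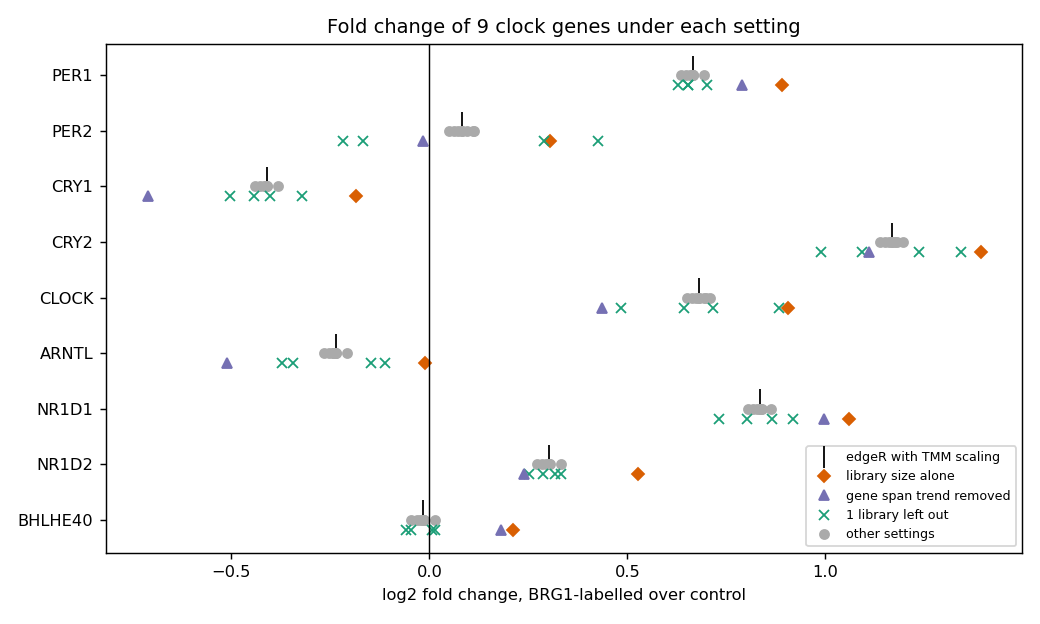
Log2 fold change of each clock gene (horizontal axis) under the edgeR fit with TMM scaling (black tick) and under each of the 14 alternatives, with scaling by library size alone, removal of the trend with gene span and the omission of 1 library marked. PER1, CRY2, CLOCK and NR1D1 stay above 0.4 throughout, while PER2 and BHLHE40 lie on both sides of 0.

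Around these 9 genes, 61 others were listed in 6 groups by their known part in the clock, of which 57 were tested. Of the 57, 12 rose, 13 fell and 32 did not pass. That is 43.9% past the threshold, near the 44.6% of all genes, so in this fit the share is that of genes in general. Their median log2 fold change was 0.15. The counts depended on the setting. Without control 2, 28 rose and 17 fell, or 49.1% and 29.8% of the 57, against 23.8% and 28% of all genes. Scaling by library size alone gave 28 rises and 9 falls, or 49.1% and 15.8%, against 33% and 14.6% of all genes. With the span trend removed the log2 fold changes of NPAS2, ARNTL2, GSK3B and DUSP1, described next, were smaller but still passed, at 0.54, 0.42, 0.35 and -0.32.

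Paralogs and loop partners of the core genes held changes in both directions, with 2 higher, 3 lower and 2 not passing of 7 tested. That is 71.4% past the threshold, against 44.6% of all genes tested. NPAS2, which can stand in for CLOCK, was at 73.2 and 86.1 CPM in controls and at 141 and 149 CPM in the BRG1-labelled libraries (log2 fold change 0.87 ± 0.11; adjusted p = 1.33e-05, edgeR quasi-likelihood test). ARNTL2, the paralog of ARNTL, rose from 53.0 and 51.2 CPM to 88.5 and 87.2 CPM (0.75 ± 0.10; adjusted p = 2.67e-05). Of the 4 activator genes, CLOCK, NPAS2 and ARNTL2 thus rose and ARNTL did not pass.

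CIART, also called CHRONO, a repressor of CLOCK and ARNTL, fell from 23.9 and 24.2 CPM in controls to 8.16 and 9.45 CPM in the BRG1-labelled libraries (-1.45 ± 0.15; adjusted p = 1.95e-06, edgeR quasi-likelihood test). BHLHE41, the paralog of BHLHE40 also called DEC2, fell from 14.96 and 18.3 CPM to 6.60 and 8.04 CPM (-1.18 ± 0.17; adjusted p = 6.19e-05). The paralogs thus had values of -0.01 for BHLHE40 and -1.18 for BHLHE41, with 95% intervals that do not meet (-0.23 to 0.20 and -1.55 to -0.81); the difference itself was not tested. RORA, the nuclear receptor that activates ARNTL against the REV-ERBs, fell from 19.2 and 18.6 CPM to 12.5 and 13.7 CPM (-0.53 ± 0.14; adjusted p = 0.00725), a call lost without BRG1-labelled library 1 (-0.47; adjusted p = 0.114) and with library size alone (-0.31; adjusted p = 0.0892). RORB had a value of -0.41 ± 0.18 and did not pass (adjusted p = 0.0817). The value was -0.49 without control 1, and RORB passed with the span trend removed (-0.75).

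Among 8 clock output genes 1 rose, 2 fell and 5 did not pass, or 37.5% past the threshold against 44.6% of all genes tested. HLF, a factor of the PAR bZIP family that binds D-box sequences, had 74 and 44 reads in controls and 228 and 250 in the BRG1-labelled libraries, or 2.11, 1.37, 5.81 and 6.68 CPM (log2 fold change 1.83 ± 0.29; adjusted p = 0.000106, edgeR quasi-likelihood test). The other members of that family had values near 0: DBP was at 1.57, 1.68, 1.68 and 1.95 CPM in the 4 libraries (0.16 ± 0.40; adjusted p = 0.777) and TEF at 20.8, 17.8, 19.7 and 18.6 CPM (-0.02 ± 0.14; adjusted p = 0.941). NFIL3, which represses through the same D-boxes, fell by 0.33 ± 0.11 on the log2 scale (adjusted p = 0.0283), a call lost at a like size without BRG1-labelled library 1 (-0.39; adjusted p = 0.138) or 2 (-0.27; adjusted p = 0.32), and at a smaller one with library size alone (-0.10) and with the span trend removed (-0.20). NAMPT, the rate-limiting enzyme of NAD salvage, fell from 121 and 102 CPM to 49.6 and 48.1 CPM (-1.19 ± 0.11; adjusted p = 7.71e-07).

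Enzymes that modify clock proteins showed smaller values, with 3 higher, 3 lower and 8 not passing of 14 tested. That is 42.9% past the threshold, against 44.6% of all genes tested. CSNK1E and CSNK1D, the casein kinases that phosphorylate the PER proteins, fell by 0.41 ± 0.10 and 0.40 ± 0.10 on the log2 scale (adjusted p = 0.004 and 0.00399, edgeR quasi-likelihood test). Without BRG1-labelled library 1 or 2 neither passed, though the values stayed about as large, at -0.37 and -0.46 for CSNK1E (adjusted p = 0.163 and 0.0658) and -0.42 and -0.38 for CSNK1D (adjusted p = 0.134 and 0.177). With library size alone neither passed and the values were smaller, at -0.19 and -0.18. CSNK2B, the regulatory subunit of casein kinase 2, fell by 0.78 ± 0.11, and GSK3B, a kinase that acts on several clock proteins, rose by 0.70 ± 0.10. FBXW7, a ubiquitin ligase subunit, had a value of 0.43 ± 0.16 (adjusted p = 0.0387) that did not pass without control 1 or either BRG1-labelled library, in DESeq2, or with the span trend removed (0.09; adjusted p = 0.661).

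Of 12 chromatin cofactors of the clock 3 rose and 1 fell, or 33.3% past the threshold against 44.6% of all genes tested. KAT2B, an acetyltransferase that joins CLOCK and ARNTL, rose from 7.77 and 9.31 CPM to 22.8 and 24.0 CPM (log2 fold change 1.46 ± 0.15; adjusted p = 2.47e-06, edgeR quasi-likelihood test). KMT2A, a histone methyltransferase, rose by 0.56 ± 0.13, or 0.33 without control 1. NCOR1 and HDAC3, through which the REV-ERBs repress, did not pass, with values of 0.28 ± 0.12 and -0.15 ± 0.10. Without control 2 their values were 0.43 and -0.22. NCOR1 passed in limma-voom (adjusted p = 0.0448), with library size alone (0.50) and at 50 reads or more in 2 libraries (adjusted p = 0.0438). NONO, an RNA-binding partner of the PER proteins, fell by 0.87 ± 0.10.

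Genes through which serum, cAMP and glucocorticoid reset the clock held rises and falls, at about the share of all genes. Of 9 resetting factors 2 rose and 2 fell, or 44.4% past the threshold against 44.6% of all genes tested. SIK1, a kinase that restrains the CRTC coactivators of CREB and so limits induction of PER1, fell from 197 and 219 CPM to 66.0 and 65.4 CPM (log2 fold change -1.66 ± 0.10; adjusted p = 1.36e-08, edgeR quasi-likelihood test). CRTC2, 1 of those coactivators, fell by 0.58 ± 0.11, or 0.35 with library size alone, and MRTFB, a coactivator of serum response factor, rose by 1.08 ± 0.14. CREB1 had a value of 0.42 ± 0.13 (adjusted p = 0.0197) that did not pass without BRG1-labelled library 1 or 2, or with the span trend removed (0.26; adjusted p = 0.0996). Of 7 glucocorticoid-responsive genes tested 1 rose and 2 fell, or 42.9% past the threshold against the same 44.6%. ZBTB16 rose by 1.61 ± 0.19, while FKBP5, a classic target, fell by 0.71 ± 0.10 and DUSP1 by 0.64 ± 0.10. The glucocorticoid receptor gene NR3C1 was at 51.0, 54.8, 62.2 and 61.2 CPM and did not pass (0.22 ± 0.10; adjusted p = 0.0975). NR3C1 passed with library size alone (0.45), and its value was 0.26 without control 2 and -0.05 with the span trend removed.

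**Figure D5:**
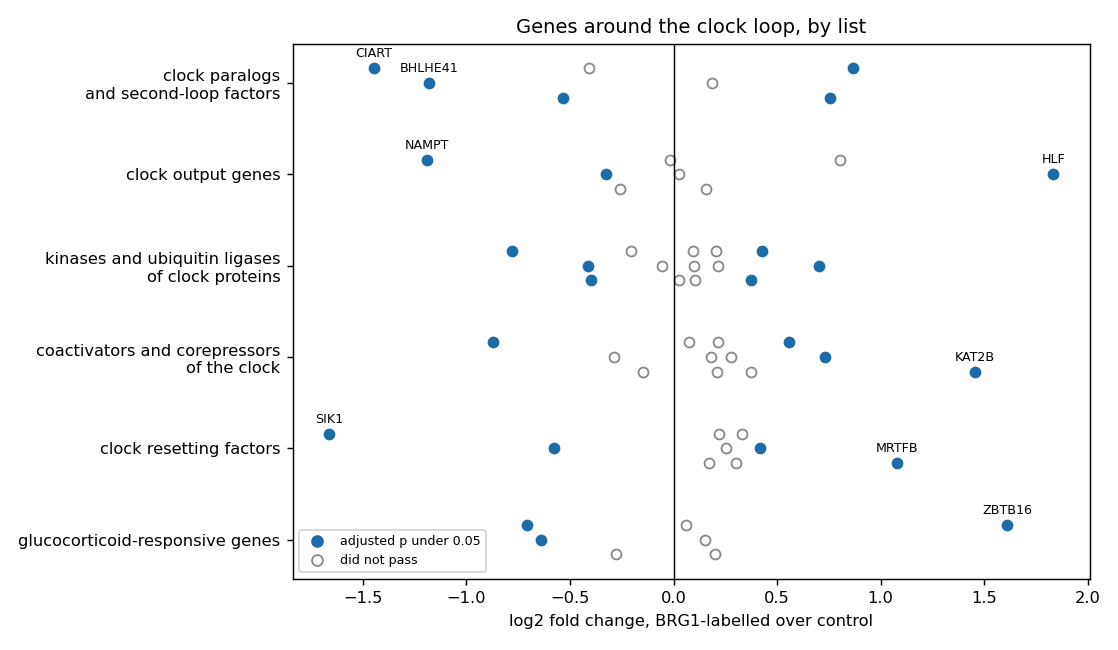
Log2 fold change, BRG1-labelled over control (horizontal axis), of the 57 tested genes in 6 lists around the clock (rows). Filled points passed an adjusted p of 0.05, open points did not, and those beyond 1 on either side are named. Every list holds both rises and falls, with HLF at 1.83 and SIK1 at -1.66 as the extremes.

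The genes whose level moved most like each clock gene over the 4 libraries were ranked by Euclidean distance of log2 CPM, centred on each gene's mean. For CRY2 these were TLE2 (distance 0.0281) and PECAM1 (0.047), for NR1D1 they were MFGE8 (0.0304) and CCN1 (0.0389), and for PER1 they were VMP1 (0.0218) and SSBP3 (0.0226). Of the 18 genes so found for the 9 clock genes, 0 belong to the 6 lists above. With 4 libraries such likeness is common: within a distance of 0.25 lay 151 genes for CRY2, 484 for NR1D1 and 735 for PER1.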

How the data were processed

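The deposited files hold whole-number read counts per Ensembl gene that the authors made without normalization, with 1 file for each library. The build was Sscrofa11.1 and the tools included FastQC, STAR, SAMtools, Cufflinks, DESeq2 and edgeR, per the submitters' processing notes; the sources used here do not give the counter, strand setting or annotation release. Closing rows that name no gene were left out of library sizes and tests; their largest share, reads outside genes, was 6.11% to 10.5% of a library. Groups and replicate numbers come from the titles. After filterByExpr (10 reads as minimum count, 15 as minimum total) libraries were scaled by TMM and genes tested with the quasi-likelihood F test of edgeR 4.0.16 in R 4.3.3, without a replicate block. The Benjamini-Hochberg adjustment ran over 14617 genes, with a threshold of 0.05. Log2 fold changes use a prior count of 0.125; SE is the unshrunk value divided by the square root of F. Locations and spans are from the RefSeq table of the same build, by symbol; 77.4% of tested genes and all 9 clock genes have a span. CSNK2A1 and FBXL21 were not analysed here, and the values of 3 genes of the lists are not reported here.

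The clock genes and lists were chosen with earlier results of these data known. All clock genes are named; of each list, up to 4 members past the threshold with the largest change are named, and others (RORA, CSNK1D, THRA and members that did not pass) were chosen after their values were seen. The alternatives were RLE scaling, library size alone, other count filters, DESeq2 1.42.0, limma-voom (limma 3.58.1), robust estimation, a replicate block, a threshold of 0.01, each library left out, and a fit with the trend over gene span taken out of each library. Replicates differed by more than counting noise (chi-square per degree of freedom 39.9 between controls and 5.40 between BRG1-labelled libraries).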

Additional observations from a re-analysis of the deposited data

How the results depend on the processing

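Of 9 clock genes, 5 rose and 1 fell. The rises numbered 4 or 5 in every alternative. The falls numbered 0 with library size alone, in DESeq2 and at an adjusted p of 0.01, 2 with the span trend removed, and from 0 to 2 with each library left out in turn. At an unadjusted p under 0.05 they numbered 0 with library size alone and 1 in DESeq2. Past the adjusted threshold, 3264 of all 16094 genes were lower in DESeq2. At an adjusted p of 0.01 there were 2611 of 14617, and with the span trend removed 3093 of 11317. Genes called higher numbered 2501, 2056 and 2199 in the same order. In the wider lists the rises numbered 28 with library size alone, and from 9 to 28 (without control 2) with a library left out. Over all genes library size alone gave 4819 higher and 2140 lower against 3068 and 3444; with a library left out they ranged from 1908 (without BRG1-labelled library 1) to 3673 (without control 2) higher and from 2177 to 4321 lower, in the same order, and without BRG1-labelled library 2 they were 1979 and 2250. Values that changed sign were those of genes that did not pass: BHLHE40 (0.21 with library size alone, 0.014 with at least 50 reads in 2 libraries, 0.18 with the span trend removed, and from -0.0595 to 0.015 with a library left out), PER2 (-0.016 with the span trend removed, and from -0.22 without control 1 to 0.43 without control 2), TEF (0.21 with library size alone, 0.014 with at least 50 reads in 2 libraries, 0.101 with the span trend removed, and from -0.138 to 0.094 with a library left out), HDAC3 (0.076 with library size alone), NR3C1 (-0.0547 with the span trend removed) and SMARCA4 (0.18 with library size alone, and from -0.15 without control 1 to 0.048 without control 2). The cause was not tested, beyond the shift of all genes that library size alone brings. The span correction covers 77.4% of tested genes, so over all genes that check is void. Same-numbered libraries did not deviate together (correlation -0.037), so the numbers are not taken to pair them. With the replicate number as a block 5 clock genes rose and 1 fell. Of the 57 wider genes 16 rose and 14 fell (28.1% and 24.6%), NCOR1 among the rises (adjusted p = 0.0372, edgeR quasi-likelihood test). Over all 14617 genes tested, that fit called 3189 higher and 3505 lower. With a library left out, its group has 1 library, which is assumed to vary like those of the other group. Without a control, the spread thus came only from the BRG1-labelled pair. That pair differed less than the controls did (chi-square per degree of freedom 5.40 against 39.9), so a gene that passes only there is not read as different. At 72 to 127 reads, PER2 was the clock gene most limited by depth.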
